A study of Mus musculus with 18 samples.

Results

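The genes analysed were the 40 mouse zinc finger genes whose symbol is Zfp9 followed by 2 further digits and no letter. The rule uses the symbol alone, over 20878 genes measured in 18 tumors of the K7M2 series, and it was set with earlier results of these data known. They run from *Zfp930* to *Zfp973*. The K7M2 line grows as osteosarcoma and was derived from a Balb/c mouse. Its cells were transduced with lentivirus carrying a control shRNA (ATRXCT) or an shRNA against *Atrx* (ATRXKD), and were grafted into young female mice per the study's methods. Balb/c hosts are immunocompetent, whereas T, B and NK cells are missing from NSG hosts. Whether the transduced cells are 1 clone is not given in the sources used here. Sequenced tumors came from 4 Balb/c ATRXCT, 4 Balb/c ATRXKD, 5 NSG ATRXCT and 5 NSG ATRXKD grafts, each from a different numbered mouse. Whole cages were assigned to one kind of cells and the labels give no cage, so cage and knock-down cannot be told apart.

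Most of these genes encode KRAB zinc finger proteins. Such a protein binds DNA through a row of C2H2 zinc fingers, each of which contacts a few bases, and its KRAB domain recruits TRIM28, which in turn brings the methyltransferase SETDB1 and heterochromatin proteins to the bound site. Many members of the family bind transposable elements. Their genes arose by repeated duplication and lie in clusters, so neighbors often have very similar sequence. ATRX is a chromatin remodeler of heterochromatin, where it acts with the histone chaperone DAXX.

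The longest reading frames of the GENCODE transcripts were searched for both domains. A KRAB-like run (tryptophan, leucine, glutamine, leucine, tyrosine and valine at fixed spacing, with at most 1 of these letters different) was found in 36 of the 40 genes (90%), against 159 of 302 other *Zfp* genes with a transcript (52.6%). The 4 genes without it were *Zfp935*, *Zfp939*, *Zfp956* and *Zfp957*. A C2H2 finger pattern was found in 38 genes, with a median of 11 fingers per reading frame and a highest value of 18 in *Zfp945*. The pattern was absent from the longest frames of *Zfp957* and *Zfp972*. The other *Zfp* genes had a median of 10 fingers and reached 36. For *Zfp939*, GENCODE lists no protein-coding model, although its longest frame of 540 residues held 14 fingers.

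The genes lie on 12 chromosomes of mm10, 10 of them on chromosome 17 and 9 on chromosome 2. With neighbors joined when under 500 kb apart, 14 genes fell into 3 clusters of at least 3 genes, 6 fell into pairs and 20 stood alone. The cluster on chromosome 17, from 21567046 to 22867134, held *Zfp948*, *Zfp942*, *Zfp943*, *Zfp947*, *Zfp944*, *Zfp946* and *Zfp945* in this order, with 4 other *Zfp* genes between them. On chromosome 2, *Zfp970*, *Zfp972*, *Zfp971* and *Zfp931* lay between 177464742 and 178078425, and the pairs *Zfp965* with *Zfp966* and *Zfp967* with *Zfp973* lay upstream of them. *Zfp930*, *Zfp964* and *Zfp963* formed the cluster of chromosome 8, from 69209046 to 69749962. Annotated transcripts had 883 to 6920 nt (median 2756) in 3 to 7 exons, with 4 exons in 24 of the genes.

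Promoter sequences (RefSeq, GRCm38.p6, 300 bases around each start site) were available for 37 of the 40 genes. For a gene with several start sites, only the first listed was used. Over all 666 pairs, the median identity after alignment was 47.6%, and 14 pairs were above 80%, 13 of them within the chromosome 2 family. *Zfp966* and *Zfp967* have identical promoter windows, although the genes lie apart on chromosome 2. *Zfp965* and *Zfp971* are 97.0% identical, and *Zfp966* and *Zfp970* are 96.1% identical. These sequences are shown because the genes of each pair were measured at very different levels, as given below. They were chosen after these levels were seen. The low levels of *Zfp965* and *Zfp966* are uncertain, since most of their transcript sequence also occurs in other genes. The search motif CCGGAAG, a core bound by ETS factors, is in capitals where it or its reverse complement occurs.

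Zfp965 (chr2:175469775-175470074, plus strand): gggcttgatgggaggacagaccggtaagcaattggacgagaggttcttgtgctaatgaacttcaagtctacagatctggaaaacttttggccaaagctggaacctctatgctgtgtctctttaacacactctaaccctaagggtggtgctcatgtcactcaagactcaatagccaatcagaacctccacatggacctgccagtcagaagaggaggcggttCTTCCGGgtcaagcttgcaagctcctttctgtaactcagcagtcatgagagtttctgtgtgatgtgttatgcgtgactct
Zfp971 (chr2:178023034-178023333, plus strand): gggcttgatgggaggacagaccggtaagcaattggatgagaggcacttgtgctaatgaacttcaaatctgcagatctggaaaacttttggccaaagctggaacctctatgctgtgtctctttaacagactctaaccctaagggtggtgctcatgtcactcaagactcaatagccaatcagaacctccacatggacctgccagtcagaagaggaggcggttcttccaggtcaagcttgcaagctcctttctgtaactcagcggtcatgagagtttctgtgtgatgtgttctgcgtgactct
Zfp966 (chr2:175931051-175931350, minus strand): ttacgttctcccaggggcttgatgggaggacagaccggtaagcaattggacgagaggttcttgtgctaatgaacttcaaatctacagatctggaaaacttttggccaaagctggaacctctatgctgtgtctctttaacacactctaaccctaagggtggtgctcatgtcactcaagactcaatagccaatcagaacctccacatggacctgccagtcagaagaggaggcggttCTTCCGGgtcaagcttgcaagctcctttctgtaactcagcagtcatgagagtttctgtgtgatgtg
Zfp970 (chr2:177464492-177464791, plus strand): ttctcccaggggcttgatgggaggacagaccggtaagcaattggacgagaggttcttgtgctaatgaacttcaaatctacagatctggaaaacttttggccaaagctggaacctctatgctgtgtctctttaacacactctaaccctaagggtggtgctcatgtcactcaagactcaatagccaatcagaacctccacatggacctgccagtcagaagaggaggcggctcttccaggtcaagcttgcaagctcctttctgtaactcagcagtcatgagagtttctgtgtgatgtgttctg

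*Zfp965* and *Zfp971* differ at 9 of 300 positions without any gap. Counted from 1 at the 5′ end, with the *Zfp965* base first, the differences are C37T, T44C, T45A, G66A, A70G, C127G, G226A, A261G and A289C, and G226A falls within the capitals. CCGGAAG was found on either strand in 11 of the 37 promoters (29.7%). It was found in 9.12% of 27025 promoters over all genes and in 21.1% of 246 promoters of other *Zfp* genes, 1 per gene. Among the 11 are *Zfp965*, *Zfp966*, *Zfp967*, *Zfp972* and *Zfp973* of the chromosome 2 family. The windows of *Zfp966* and *Zfp967* are identical and that of *Zfp965* is 90.8% identical to them, so the 37 windows are not independent. TATAAA was found in 0 of the 37, against 14.2% of all promoters and 6.91% of the other *Zfp* promoters. GGGCGG, a core bound by SP1, was found in 10 (27.0%), against 35.9% and 47.2%. A match describes these letters only. CpG dinucleotides numbered 3 to 24 per window (median 8), against a median of 7 over all promoters and of 16 over the other *Zfp* promoters.

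The window with many CpGs below starts both *Zfp942* and *Zfp943*, which are transcribed away from each other in the chromosome 17 cluster, with 94 bases between their start sites (21962464 and 21962559). It holds 20 CpGs and no CCGGAAG. *Zfp944* likewise has its start 52 bases from that of *Zfp758*, and its window is 84.3% identical to that of *Zfp942*.

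Zfp942 (chr17:21962415-21962714, minus strand): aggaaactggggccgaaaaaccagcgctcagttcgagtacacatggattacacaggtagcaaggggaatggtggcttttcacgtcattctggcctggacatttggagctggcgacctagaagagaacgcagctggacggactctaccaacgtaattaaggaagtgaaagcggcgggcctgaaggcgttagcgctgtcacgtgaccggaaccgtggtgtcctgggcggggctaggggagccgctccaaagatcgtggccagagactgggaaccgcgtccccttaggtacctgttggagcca

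The deposited values are log2 of FPKM plus 1, where FPKM is a fragment number corrected for transcript length and for library size, so levels can be compared between genes. Depth was estimated from the steps between low values at 14650000 to 25000000 fragments per library. Whole fragments were not recovered from these steps, so the depths and the floors built on them are approximate. As a check of the grafts and hosts, T cell markers summed to 19.97 to 40.6 FPKM in Balb/c tumors and 1.00 to 6.07 FPKM in NSG tumors, and NK markers to at least 20.5 FPKM and at most 0.574 FPKM. Osteoblast lineage markers summed to 63.4 to 522 FPKM, with *Ibsp* under 0.1 FPKM in every tumor and *Sp7* under 0.1 FPKM in 3 of the 4 groups. *Eif2s3y*, a Y-linked gene, was 5.64 to 14.4 FPKM in the 10 NSG tumors and listed at 0 in the 8 Balb/c tumors, whereas the methods state female mice for both hosts, so differences between hosts cannot be told apart from this. *Atrx*, the targeted gene, was 10.2 ± 3.47 FPKM in NSG ATRXKD and 17.6 ± 4.99 FPKM in NSG ATRXCT tumors (SD, n = 5 each). In Balb/c mice it was 13.95 ± 6.54 against 17.6 ± 7.12 FPKM (SD, n = 4 each). It was called in neither host. The log2 differences were −0.74 in NSG (limma adjusted p = 0.0610) and −0.34 in Balb/c mice (limma adjusted p = 0.999). The paper reports loss of ATRX on a western blot of the K7M2 line, whereas whole tumors, host cells included, were measured here.

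Of the 40 genes, 7 had a mean of at least 10 FPKM over the 18 tumors, 24 had a mean between 1 and 10 FPKM, 2 between 0.1 and 1 FPKM, and 7 were below 0.1 FPKM. The median of the 40 means was 3.23 FPKM, against 3.46 FPKM for all genes and 4.61 FPKM for 303 other *Zfp* genes. The highest level was that of *Zfp948*, at 16.1 to 24.6 FPKM (median 20.8), which is above 76.9% of all genes. *Zfp958* followed at 14.1 to 26.9 FPKM (median 17.8), *Zfp930* at 13.2 to 23.2 FPKM (median 17.9) and *Zfp950* at 8.90 to 23.2 FPKM (median 15.1). *Zfp971*, *Zfp961* and *Zfp942* had means of 12.1, 11.9 and 11.1 FPKM. The ranges of neighbors in the order of these 7 overlapped. No gene was at 0 in all 18 tumors.

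Among the 31 genes averaging 1 FPKM or more, the highest tumor exceeded the lowest by 1.47-fold (*Zfp949*) to 5.84-fold (*Zfp945*), with a median of 1.93-fold. The 33 genes averaging 0.1 FPKM or more were above the floor, the FPKM that 3 fragments would give, in all 18 tumors. *Zfp940* (0.344 to 1.07 FPKM) and *Zfp947* (0.270 to 0.635 FPKM) were the lowest of these. Among the genes in between were *Zfp954* at 5.10 to 11.4 FPKM, *Zfp952* at 5.34 to 12.7 FPKM, *Zfp944* at 5.10 to 9.15 FPKM and *Zfp959* at 4.41 to 7.52 FPKM. *Zfp933* was 3.89 to 7.20 FPKM, *Zfp953* 2.68 to 5.19 FPKM, *Zfp931* 2.18 to 4.33 FPKM and *Zfp964* 0.660 to 1.63 FPKM. Each of these 8 encodes a KRAB-like run, with 7 to 12 fingers.

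**Figure D1:**
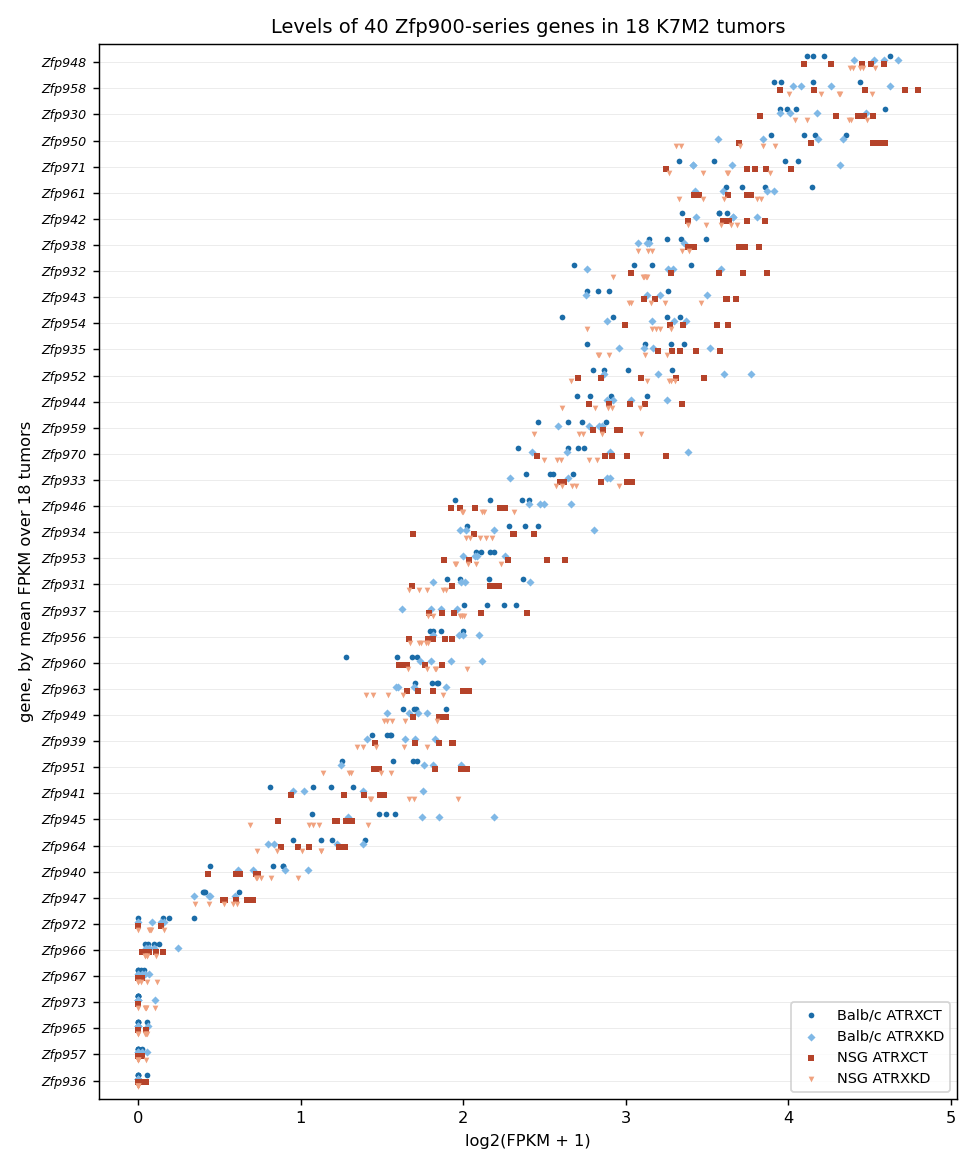
Level of each of the 40 genes in every tumor as log2(FPKM + 1) on the horizontal axis, with genes ordered by mean FPKM and 1 symbol per tumor, colored by group. The 7 genes at the bottom sit near 0 in all groups, and *Zfp948* at the top reaches 24.6 FPKM.

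The 7 genes below 0.1 FPKM were *Zfp972*, *Zfp966*, *Zfp967*, *Zfp973*, *Zfp965*, *Zfp957* and *Zfp936*, and 5 of them belong to the chromosome 2 family. *Zfp936* was above 0 in 4 tumors and *Zfp957* in 5, never above the floor. *Zfp965* was above 0 in 6 tumors and at most 0.0420 FPKM, where the floor was 0.106 to 0.180 FPKM. *Zfp971*, with 97.0% of the promoter window in common, was 8.50 to 18.9 FPKM. *Zfp966* was 0.0153 to 0.183 FPKM and above its floor in 8 tumors, while *Zfp970* was 4.04 to 9.42 FPKM. *Zfp967* was above its floor in 2 tumors, *Zfp972* in 1 and *Zfp973* in 0.

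How far such values can be told apart depends on shared sequence, because a read that fits several genes is given a low mapping quality by STAR and the methods remove reads with a score under 20 without saying which score is meant. In the GENCODE transcripts, all 1727 windows of 75 nt of *Zfp967* also occur in another gene that does not overlap it, as do 94.6% of those of *Zfp965*, 85.1% of *Zfp966*, 76.0% of *Zfp973* and 75.3% of *Zfp960*. The windows of *Zfp960* are shared with *Zfp97*. So 4 of the 7 genes near 0 have over 50% shared sequence, and their low level is uncertain. *Zfp957* shares no window and *Zfp936* shares 7.35%. *Zfp972* (43.4%), *Zfp971* (32.8%), *Zfp970* (30.4%), *Zfp932* (26.4%), *Zfp937* (18.6%), *Zfp934* (18.1%) and *Zfp931* (12.6%) share part, and the other 28 genes share under 10%.

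**Figure D2:**
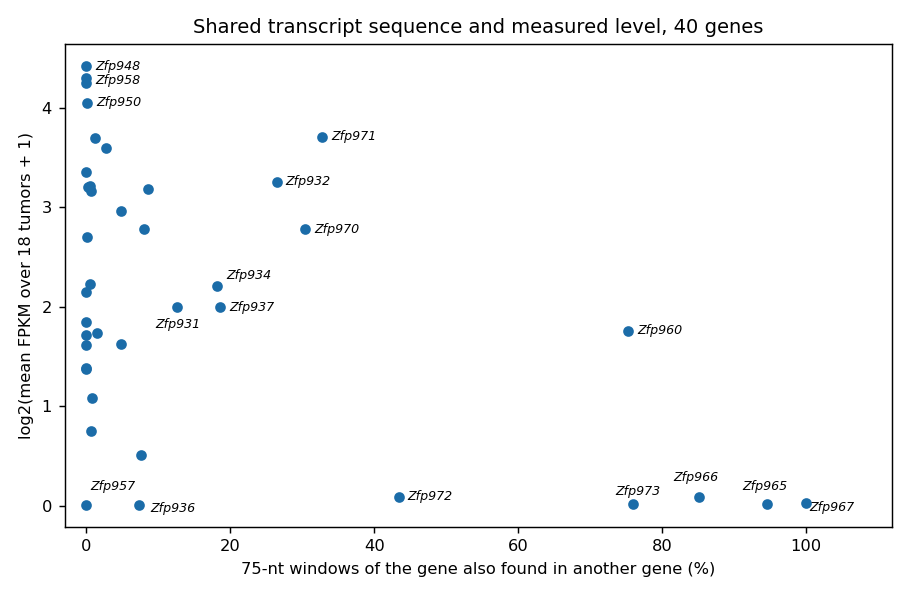
Percent of the 75-nt windows of each gene's transcripts that also occur in another gene (horizontal axis) against log2 of its mean FPKM plus 1 (vertical axis), 1 point per gene. Of the 5 points right of 50%, 4 lie near 0 and *Zfp960* stands at a mean of 2.39 FPKM, whereas *Zfp957* and *Zfp936* are near 0 with little shared sequence.

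Tumors were then compared over the genes together, as the distance of each tumor from the gene's mean over 18 tumors in log2(FPKM + 1). This is a description with no test. Over the 33 genes averaging 0.1 FPKM or more, the median deviation was highest in NSG ATRXCT mouse 1 (0.23), mouse 4 (0.17), Balb/c ATRXKD mouse 59 (0.16) and NSG ATRXCT mouse 5 (0.15). It was lowest in Balb/c ATRXCT mouse 41 (−0.16), Balb/c ATRXKD mouse 60 (−0.16) and NSG ATRXKD mouse 29 (−0.14). In NSG ATRXCT mouse 1, 29 of the 33 genes were above their own mean, and in NSG ATRXKD mouse 29 only 5 were. High and low tumors occurred within one group, since NSG ATRXCT mice 2 and 3 were at −0.10 and −0.06. The medians of 277 other *Zfp* genes lay between −0.09 and 0.12, and those of all genes between −0.05 and 0.02.

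**Figure D3:**
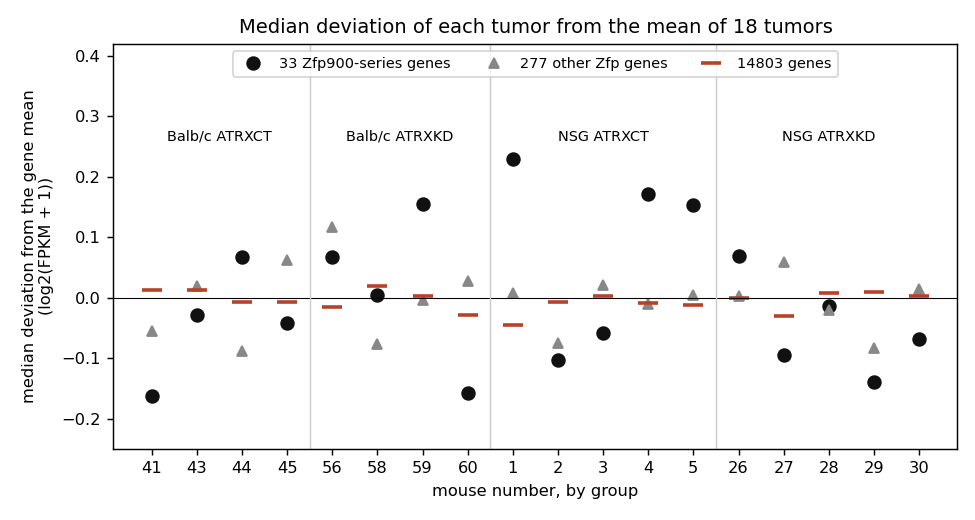
Median deviation of each tumor from the gene means (vertical axis, log2(FPKM + 1)) for the Zfp900-series genes, other *Zfp* genes and all genes, with 1 position per mouse on the horizontal axis and groups parted by lines. NSG ATRXCT mice 1, 4 and 5 lie at 0.15 to 0.23, above every NSG ATRXKD tumor, while mice 2 and 3 of the same group lie below 0.

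*Trim28*, which encodes the corepressor of KRAB proteins, was 75.7, 74.5 and 83.5 FPKM in NSG ATRXCT mice 1, 4 and 5, the 3 lowest values of all tumors, and 94.1 and 109.9 FPKM in mice 2 and 3. The same 3 libraries were the shallowest of the 18, at an estimated 14650000, 17500000 and 16650000 fragments, where the others had at least 18150000. The trend of expression with transcript length was negative in them, as it was in 8 others. The part of any of these in the levels of the zinc finger genes was not tested.

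Whether the knock-down changed these genes in syngeneic hosts was asked in the 4 Balb/c ATRXKD and 4 Balb/c ATRXCT tumors. Genes averaging 0.1 FPKM or more were tested with limma. A gene was called when its p, adjusted by Benjamini-Hochberg, was below 0.05 and its mean log2(FPKM + 1) differed by at least 1. This is the fold threshold named below, and it is stricter than a 2-fold change of FPKM, most of all at low levels. Of the 34 genes tested here, which include *Zfp972* at up to 0.271 FPKM, 0 were called by limma, where 0.0068% of all 14701 genes were called, with or without the fold threshold. At an unadjusted p under 0.05, 1 gene was lower and 1 was higher, where 2.42% and 1.72% of all genes were. The differences ranged from −0.37 to 0.37 with a median of 0.09, and 13 of 34 were negative.

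*Zfp937*, a KRAB gene outside the clusters (chr2:150218099-150244874), had the lowest p. It was 3.76, 4.00, 3.01 and 3.43 FPKM in ATRXCT tumors and 2.64, 2.48, 2.89 and 2.08 FPKM in ATRXKD tumors of Balb/c mice. All ATRXKD tumors were below all ATRXCT tumors, and the log2 difference was −0.37 (standard error 0.13, limma adjusted p = 0.999, two-sided exact permutation p = 0.0286, the smallest that 4 against 4 tumors allow). In NSG mice, its groups overlapped at 2.46 to 4.25 and 2.44 to 3.02 FPKM.

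*Zfp960* (chr17:17064103-17089631), of which 75.3% of the sequence is shared, was the other gene whose Balb/c groups did not overlap. It was 1.42, 2.28, 2.02 and 2.22 FPKM in ATRXCT and 3.34, 2.49, 2.80 and 2.33 FPKM in ATRXKD tumors, a log2 difference of 0.33 (standard error 0.15, limma adjusted p = 0.999, exact permutation p = 0.0286). Among all genes, 1.93% were lower and 1.25% higher without overlap in this comparison. Adipocyte markers (4 of 4 measured, 0 at 0) summed to 76.0 to 87.9 FPKM in Balb/c ATRXCT and 122 to 217 FPKM in Balb/c ATRXKD tumors, and their part in these values was not tested. By p, *Zfp946* (0.29) and *Zfp948* (0.27) were the next higher genes, ahead of *Zfp945* (0.36) and *Zfp952* (0.37), and *Zfp938* (−0.13) and *Zfp963* (−0.10) were the next lower ones, each with an adjusted p of 0.999 in limma.

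In NSG mice, the same question was asked in 5 ATRXKD and 5 ATRXCT tumors. The comparisons across hosts given further on use these tumors again. Of 33 genes tested, 0 were called by limma, where 0.464% of all 14654 genes were called, and 0 had an adjusted p under 0.05 at any fold, where 6.78% of all genes did. At an unadjusted p under 0.05, 7 were lower (21.2%) and 1 was higher (3.03%), where 12.5% and 13.8% of all genes were, and 8.66% and 9.39% of 277 other *Zfp* genes. The lower ones were *Zfp950*, *Zfp938*, *Zfp935*, *Zfp951*, *Zfp932*, *Zfp949* and *Zfp963*. Differences ranged from −0.68 to 0.32, and 26 of 33 were negative, with a median of −0.12, where 50.2% of all genes were negative. For 0 of the genes did the groups part without overlap, where 3.14% of all genes were lower and 4.36% higher in that way.

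*Zfp950* (chr19:61053840-61140840), which encodes a KRAB protein with 17 fingers, had the lowest adjusted p. It was 23.2, 11.97, 16.6, 22.5 and 21.99 FPKM in NSG ATRXCT tumors and 13.3, 14.1, 12.03, 8.90 and 9.13 FPKM in NSG ATRXKD tumors. Mice 1, 3, 4 and 5 of the control group stood above every ATRXKD tumor, and mouse 2 lay below 3 of the 5. The log2 difference was −0.68 (standard error 0.19, limma adjusted p = 0.0547, exact permutation p = 0.0317). In Balb/c mice, *Zfp950* was 13.9 to 19.4 and 10.8 to 19.2 FPKM, with overlapping groups.

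*Zfp938*, a KRAB gene with 10 fingers that stands alone (chr10:82224856-82241275), was 13.1, 9.70, 9.41, 12.3 and 11.9 FPKM in NSG ATRXCT tumors and 7.44, 7.80, 9.18, 7.95 and 9.46 FPKM in NSG ATRXKD tumors. The groups overlapped only through control mouse 3 and knock-down mouse 30. Its log2 difference was −0.39 (standard error 0.11, limma adjusted p = 0.0619, exact permutation p = 0.0159).

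*Zfp935* (chr13:62453016-62466812), which has 7 fingers and no KRAB-like run in its longest frame, was 9.09, 8.19, 8.75, 9.79 and 10.9 FPKM in NSG ATRXCT tumors and 8.55, 7.69, 6.44, 6.14 and 6.10 FPKM in NSG ATRXKD tumors. Control mouse 2 lay below knock-down mouse 26. Its log2 difference was −0.38 (standard error 0.12, limma adjusted p = 0.0667, exact permutation p = 0.0159). *Zfp934*, its neighbor within the pair on chromosome 13, was 2.23 to 4.40 and 3.04 to 3.52 FPKM in these groups.

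*Zfp941*, a KRAB gene (chr7:140809677-140822178), was higher at an unadjusted p under 0.05. It was 1.85, 0.919, 1.81, 1.63 and 1.41 FPKM in NSG ATRXCT and 1.68, 2.17, 1.69, 2.24 and 2.91 FPKM in NSG ATRXKD tumors, and the groups overlapped. The log2 difference was 0.32 (standard error 0.14, limma adjusted p = 0.170, exact permutation p = 0.0635). *Zfp940*, one of the lowest of the measured genes, was 0.650, 0.664, 0.520, 0.542 and 0.344 FPKM against 0.660, 0.656, 0.758, 0.690 and 0.975 FPKM. The log2 difference of *Zfp940* was 0.18 (standard error 0.08, limma adjusted p = 0.191, exact permutation p = 0.0238), and that of *Zfp960* was 0.12 (limma adjusted p = 0.466).

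*Zfp951*, a KRAB gene with 10 fingers (chr5:104813168-104860068), was 3.07, 1.74, 1.79, 2.55 and 2.96 FPKM in NSG ATRXCT and 1.94, 1.82, 1.48, 1.46 and 1.20 FPKM in NSG ATRXKD tumors. Control mice 2 and 3 lay within the ATRXKD range. Its log2 difference was −0.39 (standard error 0.14, limma adjusted p = 0.0971, exact permutation p = 0.0476). *Zfp949*, with the lowest ratio of highest to lowest tumor among genes averaging 1 FPKM or more, was 2.65, 2.23, 2.61, 2.65 and 2.72 FPKM against 1.95, 2.57, 2.12, 1.86 and 1.89 FPKM, and knock-down mouse 27 lay within the control range. Its log2 difference was −0.22 (standard error 0.09, limma adjusted p = 0.149, exact permutation p = 0.0159).

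The NSG result depended on single tumors and on how they were weighted. With no fold threshold and an adjusted p under 0.05 in limma, in settings chosen after seeing the data, 4 genes (*Zfp932*, *Zfp938*, *Zfp950* and *Zfp951*) were lower without control mouse 3, where 5.48% of all genes were lower. Without knock-down mouse 26, 2 genes were lower (*Zfp935* and *Zfp950*), where 4.96% of all genes were, and without control mouse 2, 1 was (*Zfp950*), where 3.03% were. One fit of all 4 groups gave 2 lower genes (*Zfp938* and *Zfp950*), where 2.46% of all genes were lower. *Zfp950* was the 1 gene lower with the length trend removed, where 5.16% of all genes were, and with only genes averaging 1 FPKM or more, where 3.42% were. With library weights and a robust prior in limma and no fold threshold, chosen likewise, 13 of the 33 genes were lower and 1 was higher at an adjusted p under 0.05, where 16.8% of all genes were lower and 20.1% higher. These weights were lowest for control mouse 3 (0.216), knock-down mouse 27 (0.400) and control mouse 2 (0.462). *Zfp950* then differed by −0.94 (adjusted p = 0.000782 in limma, where the alternatives for this gene ranged from 0.000782 to 0.145). In Balb/c mice, 0 of 34 genes were called with such weights, where 0.15% of all genes were.

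**Figure D4:**
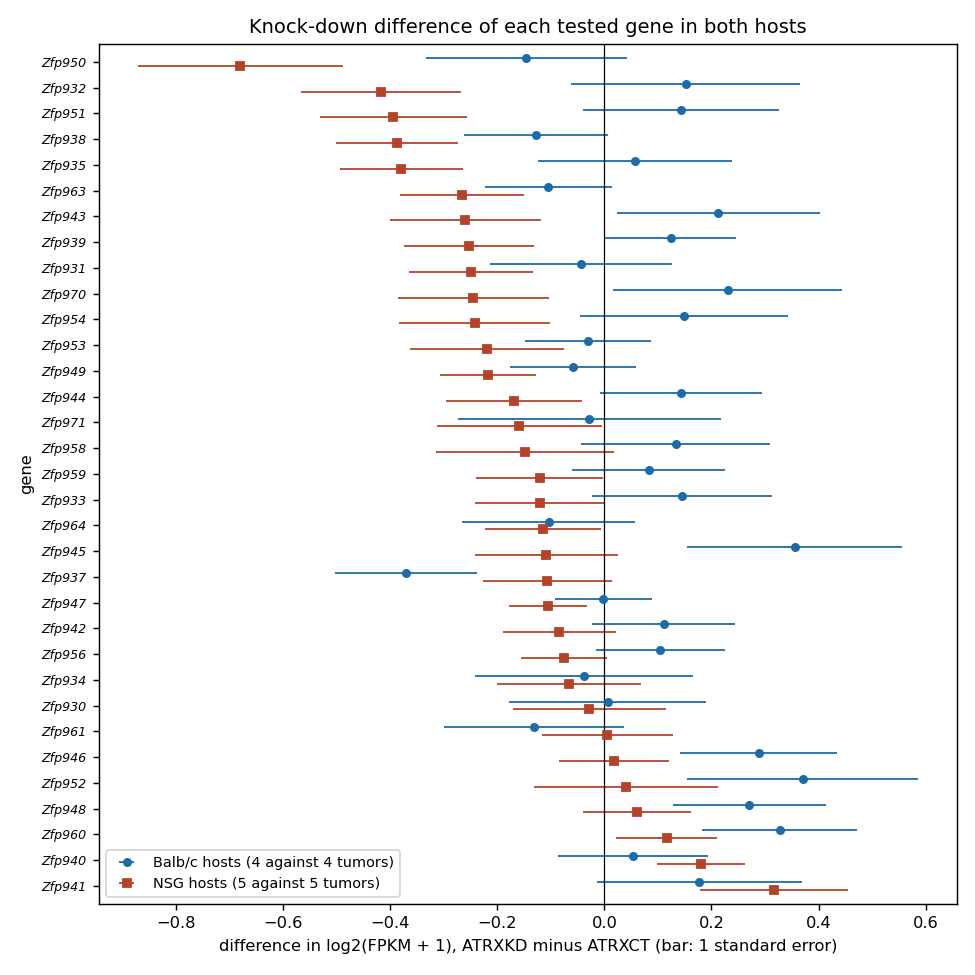
Difference of ATRXKD from ATRXCT tumors in log2(FPKM + 1) for each of the 33 genes tested in NSG mice (squares) and in Balb/c mice (circles), with bars of 1 standard error and genes ordered by the NSG value. In NSG mice, 26 of the 33 values are negative, and none was called in either host.

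Cell type markers were summed in the same tumors. Macrophage markers (6 of 6 measured) summed to 1435 to 2161 FPKM in NSG ATRXCT and 1120 to 1608 FPKM in NSG ATRXKD tumors, and endothelial markers (6 of 6) to 13.5 to 41.6 and 32.0 to 46.9 FPKM, with 0 of either list at 0. Osteoblast lineage markers summed to 63.4 to 139 and 105 to 198 FPKM, with *Sp7* and *Ibsp* under 0.1 FPKM in both groups. Adipocyte markers summed to 61.5 to 75.9 and 48.0 to 231 FPKM. The groups overlapped in each of these lists. In whole tumors, fewer cells of a type and less RNA per cell cannot be told apart. The part of these markers in the values of the zinc finger genes was not tested.

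The host difference in the knock-down effect was tested as the interaction in one fit of all 4 groups, coded as the Balb/c difference minus the NSG difference. Of 33 genes, 0 were called by limma at any fold, where 0.0% of all 14803 genes were called. At an unadjusted p under 0.05, 0 were lower and 4 were higher, where 5.86% and 4.45% of all genes were. The higher ones were *Zfp951* (0.54, standard error 0.23, adjusted p = 0.434 in limma), *Zfp939* (0.38), *Zfp932* (0.57) and *Zfp935* (0.44). The value was positive for 29 of 33 genes, with a median of 0.21 against 0.00 for all genes and 0.01 for the other *Zfp* genes. With library weights and no fold threshold, 9 of 33 were higher in this sense, where 4.84% of all genes were.

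*Zfp932*, a KRAB gene with 15 fingers (chr5:109996527-110010411), shows the values behind this. It was 7.27, 7.95, 9.57 and 5.42 FPKM in Balb/c ATRXCT and 8.80, 8.60, 11.01 and 5.77 FPKM in Balb/c ATRXKD tumors. In NSG mice it was 12.2, 8.70, 7.18, 13.6 and 10.9 FPKM in ATRXCT and 7.77, 6.57, 7.61, 7.64 and 7.71 FPKM in ATRXKD tumors. The groups overlapped in both hosts, and 26.4% of its sequence is shared, mostly with *Gm15446*.

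Over both hosts, with the host as a term, 0 of 33 genes were called by limma, where 0.108% of all genes were called, and 0 at any fold, where 2.06% were. At an unadjusted p under 0.05, 5 were lower and 2 were higher, where 8.9% and 9.29% of all genes were. *Zfp938* was lowest in p, at −0.27 (standard error 0.09, adjusted p = 0.0998 in limma), followed by *Zfp950* (−0.44), *Zfp960* (0.21) and *Zfp937* (−0.22). With library weights and no fold threshold, 8 genes were lower, where 8.94% of all genes were.

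The same genes were compared between hosts among control tumors. Here and among knock-down tumors, host strain, immune state and cage cannot be told apart. Of 33 genes, 0 were called by limma, where 1.43% of all 14828 genes were called, and 0 at any fold, where 3.18% were. At an unadjusted p under 0.05, 2 were lower in Balb/c mice and 0 were higher, where 7.87% and 11.5% of all genes were. *Zfp943* of the chromosome 17 cluster was 6.44, 5.78, 8.58 and 6.11 FPKM in Balb/c ATRXCT and 11.3, 7.65, 8.07, 11.8 and 11.3 FPKM in NSG ATRXCT tumors. Only Balb/c mouse 44 reached the NSG range, and the log2 difference was −0.51 (standard error 0.17, limma adjusted p = 0.143, exact permutation p = 0.0476). *Zfp942*, which shares its promoter window, was 9.15 to 11.3 and 9.41 to 13.5 FPKM in these groups. With library weights and no fold threshold, 10 of 33 genes were lower in Balb/c mice, where 8.88% of all genes were.

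Among knock-down tumors, 0 of 33 genes were called by limma between hosts, where 1.39% of all 14669 genes were called, and 0 at any fold, where 3.64% were. At an unadjusted p under 0.05, 0 were lower in Balb/c mice and 3 were higher, where 6.5% and 9.93% of all genes were. These were *Zfp945*, *Zfp946* and *Zfp956*, and for *Zfp946* and *Zfp956* the hosts did not overlap, where 5.08% of all genes were higher in Balb/c mice in that way.

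*Zfp945*, which holds the most fingers of the 40, was 3.56, 2.36, 2.5999 and 1.45 FPKM in Balb/c ATRXKD and 1.66, 1.11, 1.076, 1.16 and 0.610 FPKM in NSG ATRXKD tumors. Balb/c mouse 60 lay inside the NSG range, and the mean FPKM was 122% higher in Balb/c than in NSG mice. The log2 difference was 0.70 (standard error 0.19, limma adjusted p = 0.0803, exact permutation p = 0.0317), and it came to 0.86 when this tumor was left out (limma adjusted p = 0.0314, where leaving out any other single tumor gave up to 0.191).

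*Zfp946*, its neighbor with 11 fingers, was 4.54, 4.30, 5.33 and 4.65 FPKM in Balb/c ATRXKD and 3.98, 2.97, 3.37, 3.33 and 3.00 FPKM in NSG ATRXKD tumors, a log2 difference of 0.40 (standard error 0.11, limma adjusted p = 0.0939, exact permutation p = 0.0159, the smallest that 4 against 5 tumors allow). *Zfp956* (chr6:47953390-47965300), which has 6 fingers and no KRAB-like run, was 2.52, 3.00, 2.93 and 3.28 against 2.42, 2.44, 2.19, 2.32 and 2.34 FPKM, a log2 difference of 0.23 (standard error 0.10, adjusted p = 0.261 in limma). With library weights and no fold threshold, *Zfp945* and *Zfp946* were the 2 genes called, where 7.55% of all genes were higher. *Zfp945* was the 1 gene called without Balb/c mouse 60, where 2.09% of all genes were higher, and in one fit of all 4 groups, where 3.57% were.

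**Figure D5:**
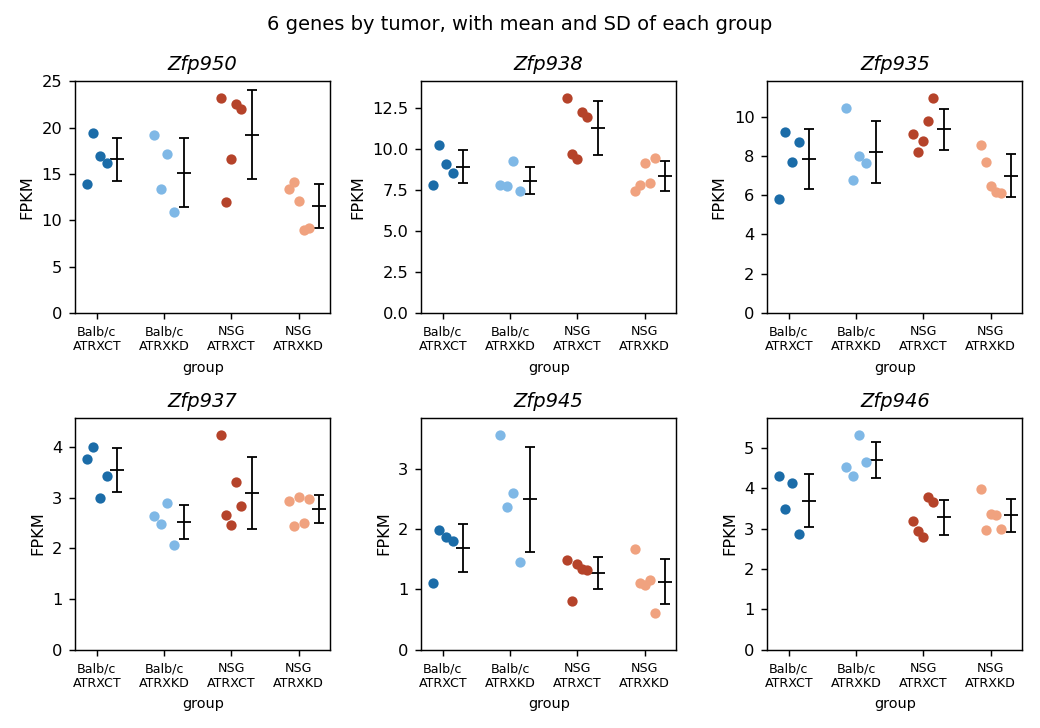
FPKM of *Zfp950*, *Zfp938*, *Zfp935*, *Zfp937*, *Zfp945* and *Zfp946* in every tumor, with 1 point per tumor and the mean and SD of each group beside its points. *Zfp937* parts the Balb/c groups, and *Zfp946* is higher in all Balb/c ATRXKD tumors (4.30 to 5.33 FPKM) than in all NSG ATRXKD tumors (2.97 to 3.98 FPKM).

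The summed level of the 7 genes on chromosome 17 was 48.1 ± 5.73 FPKM in Balb/c ATRXCT and 56.7 ± 6.08 FPKM in Balb/c ATRXKD tumors (SD, n = 4 each), and 53.9 ± 7.62 and 50.9 ± 3.22 FPKM in the NSG groups (SD, n = 5 each). In NSG mice, the differences of these genes ran from −0.26 (*Zfp943*) to 0.06 (*Zfp948*). The chromosome 2 cluster summed to 21.1 ± 4.25, 22.1 ± 7.35, 22.2 ± 4.02 and 18.9 ± 2.07 FPKM in the same order of groups, and the chromosome 8 cluster to 20.8 ± 4.28, 20.3 ± 3.17, 22.8 ± 3.46 and 21.5 ± 2.54 FPKM. Every pair of groups overlapped in each of the 3 sums.

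A list of 29 gene symbols for silencing by KRAB proteins and for heterochromatin, *Atrx* and *Daxx* included, was followed, and 28 of them were measured. In Balb/c mice, 0 of them passed an adjusted p under 0.05 in limma, and 0 an unadjusted p under 0.05. In NSG mice, 2 of the 28 (7.14%) had an adjusted p under 0.05, near the 6.78% of all genes. At an unadjusted p under 0.05, 2 were lower (7.14%) and 9 higher (32.1%), where 12.5% and 13.8% of all genes were. The 2 lower ones were *Morc3* and *Atrx*, which is the gene targeted by the shRNA. In NSG mice, *Cbx3*, a heterochromatin protein gene, rose by 0.37 (standard error 0.07, adjusted p = 0.0207 in limma) and *Uhrf1*, which encodes a maintenance factor of DNA methylation, rose by 0.65 (standard error 0.16, adjusted p = 0.0368 in limma) at a fold below 2. *Trim28* was 119.98 ± 15.9 against 87.5 ± 14.8 FPKM in NSG ATRXKD and ATRXCT tumors (SD, n = 5 each), a log2 difference of 0.46 (standard error 0.13, adjusted p = 0.0578 in limma), and *Setdb1* was 38.1 ± 6.62 against 33.7 ± 6.05 FPKM.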

How the data were processed

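RNA of 18 K7M2 tumors was analysed. Per the labels, ribo-depleted stranded libraries of total RNA were made. The authors aligned paired reads of 75 bp to mm10 with STAR 2.6.0c, dropped PCR duplicates and reads scoring under 20, and used Cufflinks 2.2.1 for the levels of RefSeq genes. The values deposited by the authors are log2 (FPKM + 1) for 20970 entries, 92 of them ERCC spike-ins that were left out. No normalization between libraries is given in the sources used here. That the base is 2 was checked on the values: back-transformed with it, FPKM weighted by transcript length came to 1.083 to 1.099 times the total that FPKM implies. Whole fragments were not recovered (35.6% to 45.1% of low values lay within 0.1 of a whole, where 20% would by chance), so no count test was run. Floors cover counting error only and rest on a fragment length of 160 nt. The authors' deposited annotation gave 1-based coordinates.

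The tests were run with limma 3.58.1 under R 4.3.3 on the log2 values (pseudocount 1), with lmFit followed by eBayes and its trend option. Genes entered a fit when they averaged 0.1 FPKM or more in its tumors, and Benjamini-Hochberg adjustment covered all of them. For low genes, fold changes come out too small on this scale. For single genes, exact permutation tests (two-sided, scipy 1.17.1) were added. The steps were tested on simulated data with changes larger than any found in these zinc finger genes. That test does not cover differences of the size reported for them. The labels number mice and say nothing of separate cultures of grafted cells, so p-values measure the spread between animals.

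The members and lists were chosen with earlier results of these data known. Named genes were, per comparison, the 3 lower and 3 higher members with the smallest unadjusted p, the 6 most and 3 least abundant, clusters of at least 3, and those with the most and fewest fingers. Other genes were named after their values were seen, including *Zfp934*, *Zfp949*, the shared-sequence members and the promoters shown. Fingers and KRAB-like runs were read from GENCODE M21 transcripts (GRCm38, the mm10 build) and promoters from RefSeq. Promoters were aligned with Biopython 1.88. Marker lists of keratinocytes, muscle and adipocytes were also summed, and another marker list is not reported here. Alternatives were a pseudocount of 0.1, other filters, no fold threshold, median-ratio scaling, removal of the trend with transcript length, library weights with a robust prior, one fit of all groups and leaving out each tumor. Each of these settings combined with no fold threshold was chosen after seeing the data.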

Additional observations from a re-analysis of the deposited data

Results flagged for a closer look

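Of 108 groups of tumors checked among 30 named genes, 6 held 1 tumor far from the others, where chance gives about 5.4 (1 in 20). *Zfp930* was 23.2 FPKM in Balb/c ATRXCT mouse 44, against 14.4 to 15.5 FPKM in the other 3. *Zfp947* was 0.535 FPKM in the same tumor, against 0.319 to 0.328 FPKM. *Zfp940* was 0.358 FPKM in Balb/c ATRXCT mouse 45, against 0.777 to 0.858 FPKM. *Zfp932* was 6.57 FPKM in NSG ATRXKD mouse 27, against 7.61 to 7.77 FPKM. *Zfp945* was 0.813 FPKM in NSG ATRXCT mouse 2, against 1.31 to 1.49 FPKM. *Zfp972* was 0.1005 FPKM in NSG ATRXCT mouse 3 and listed at 0 in the other 4, where the floor of 3 fragments was 0.166 to 0.283 FPKM over all tumors. The gaps were not tested further.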

How the results depend on the processing

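In all 118 alternatives set at the start for the 6 counts, 0 of the genes were called, as in the reported fits. Most of these kept the fold threshold, and no gene differed by more than 0.70 in the reported fits. Their zeros therefore say little about how stable the p-values are. Under settings chosen after seeing the data, all without a fold threshold, 99 counts were 0, and the exceptions were as follows. With library weights and a robust prior, 14 genes were called between the NSG groups, where 16.8% of all genes were lower and 20.1% higher. In the difference between hosts 9 were higher (4.84% of all genes), and over both hosts 8 were lower (8.94%). Between hosts, 10 were lower in Balb/c mice in ATRXCT tumors (8.88%) and 2 were higher in ATRXKD tumors (7.55%). With the trend with transcript length removed, 1 gene (*Zfp950*) was called between the NSG groups, with an adjusted p of 0.0380 in limma. In that setting 5.16% of all genes were lower. With a filter at 1 FPKM, 1 gene (*Zfp950*) was called, where 3.42% of all genes were lower. One fit of all groups gave 2 (*Zfp938* and *Zfp950*) between the NSG groups, where 2.46% of all genes were lower. It gave 1 (*Zfp945*) between hosts in ATRXKD tumors, where 3.57% of all genes were higher. Leaving out 1 tumor gave 0 to 4 genes between the NSG groups. Without ATRXCT mouse 3, 4 were lower (*Zfp932*, *Zfp938*, *Zfp950* and *Zfp951*), where 5.48% of all genes were. Without ATRXKD mouse 26, 2 were lower (*Zfp935* and *Zfp950*), where 4.96% were. Without ATRXCT mouse 2, 1 was lower (*Zfp950*), where 3.03% were. Between hosts in ATRXKD tumors, leaving out 1 tumor gave 0 to 1 (*Zfp945* without Balb/c mouse 60, where 2.09% of all genes were higher). It gave 0 in the other comparisons. The causes were not tested.

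For 36 differences of 18 named genes, 668 of 669 alternatives kept the direction. The differences were picked by smallest p and the alternatives refit the same tumors, so a kept direction is no independent support. In 0 of these alternatives did a gene pass the fold threshold on the log2 difference and an adjusted p under 0.05 together. At any fold, 25 alternatives, which concern 14 of the differences, had an adjusted p under 0.05 in limma where the reported fit did not, 14 of them with library weights. The exception in direction was *Zfp961* in the difference between hosts, which was −0.14 and became 0.078 with library weights. No paired analysis was possible because the groups share no mouse number. Depth limits the 7 genes below 0.1 FPKM, and shared sequence limits the values of the chromosome 2 family and *Zfp960*.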
